A study of Caenorhabditis elegans with 18 samples.

Results

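The comparison described here set L2 larvae of the heat shock factor mutant hsf-1(sy441) against larvae of the same mutation that also carried the transgene rmSi1[hsf-1::gfp], both kept at 20 °C without heat shock. Its members are the 6 libraries, of 18 in the series, that the labels place in these groups, 3 for each strain. The mutant is strain PS3551. The transgene strain is AM1062. It carries rmSi1 on chromosome II and unc-119(ed9) on chromosome III beside the sy441 allele on chromosome I, so that both strains share the hsf-1 mutation and the second also has a mutant unc-119, a gene often used as a marker for transgenesis. The libraries were made from poly(A)-selected RNA of whole Caenorhabditis elegans grown on plates from synchronised L1 larvae to mid-L2. The wild-type strain N2 at 20 °C (3 libraries) is used to show where the wild-type level lies, and the same strains after 30 min at 34 °C (3 libraries each) are used as a second set of libraries. The sources used here do not give the promoter of the transgene or whether the strains were outcrossed. Nor do they say if the 3 replicates of a group were grown apart, and p-values reflect only how much these libraries vary, which may be technical. The transgene, unc-119(ed9) and any other difference between the 2 strains cannot be told apart by this design.

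HSF-1 is the transcription factor that switches on heat shock protein genes when proteins unfold. It also acts without heat, and in C. elegans larvae it is needed for development, where it is known to work with the E2F/DP factor at promoters of chaperone and other growth genes. The sy441 allele is a premature stop that removes the transactivation domain, and a transgene that supplies full-length HSF-1 restores the functions that need that domain.

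The 6 libraries held 19188662 to 33046421 fragments assigned to genes. Of 20389 genes in the deposited table, 14219 had enough fragments to be tested, and levels are given as CPM, fragments scaled to a common library total with trimmed-mean (TMM) factors. Not all libraries lay with their group. On the first principal component of the 9 libraries at 20 °C, which held 66.9% of the variance, the mutant libraries had scores of 40.87, 54.86 and 72.03. The transgene libraries had scores of −25.79, −30.17 and 20.91, so that replicate 3 lay between its own group and the mutant. N2 replicate 3 was displaced the same way, at 1.29 against −58.75 and −75.25. The correlation of log2 levels between transgene replicate 3 and mutant replicate 1 was 0.983, as high as those with the other transgene libraries (0.9821 and 0.9803).

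**Figure D1:**
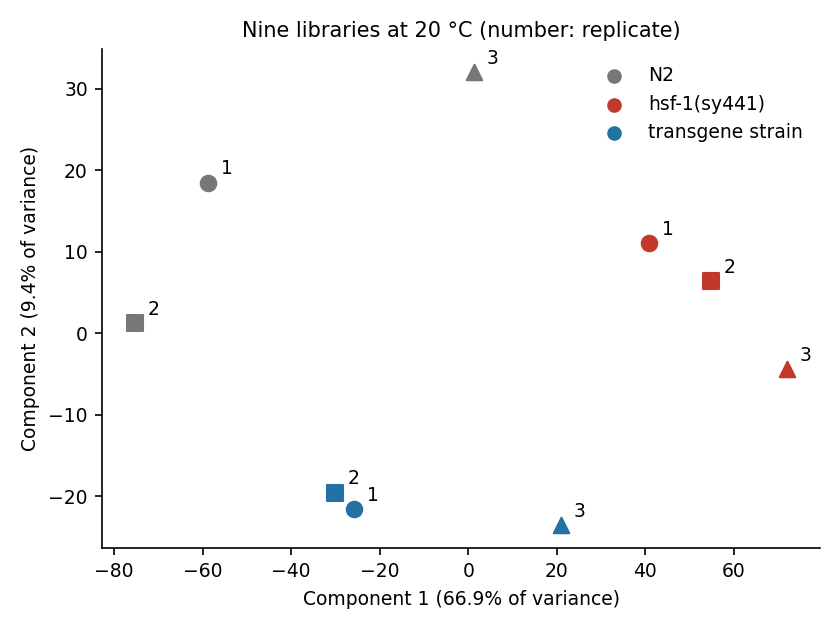
Scores of the 9 libraries at 20 °C on the first (horizontal) and second (vertical) principal components of log2 levels, with colour for strain and a number for the replicate. The mutant libraries lie between 40.87 and 72.03 on the first component, and transgene replicate 3 (20.91) and N2 replicate 3 (1.29) lie nearer to them than do the other libraries of their groups.

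Transgene replicate 3 also differed in heat shock transcripts. Its level of the small heat shock protein gene hsp-16.41 was 49.5 CPM, against 0.264 and 0.343 CPM in replicates 1 and 2. For hsp-16.2 it was 20.96 CPM against 0.527 and 0.643 CPM. These genes share 1 locus with 2 others. Without this library the adjusted p passed 0.05, and the call was lost, for these genes described below: sti-1, ahsa-1, cct-2, rps-4, rps-17, mrpl-50, mrps-35, eif-2D, eif-3.F, rbd-1, atp-3, vha-14, acdh-9, prdx-2, dct-17, abf-4, lys-10, spp-15, nekl-3, F18E3.13 and F57H12.6. Each of these calls was also lost without at least 1 other library of the compared groups, so they did not rest on this library alone. Of all genes called, 67.8% stayed called without transgene replicate 3. The share was 48.9% to 60.5% without any other single library of the compared groups.

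The targeted gene was examined first. hsf-1 itself (Y53C10A.12 on chromosome I, from 11953502 to 11961977 on build ce10) was at 92.9, 98.3 and 102.8 CPM in the mutant and at 103.8, 106.3 and 114.6 CPM in the transgene strain. The lowest transgene library lay just above the highest mutant library, and the log2 fold change was −0.14 ± 0.09 (SE), with an adjusted p of 0.388 by edgeR's quasi-likelihood test with Benjamini-Hochberg adjustment over all tested genes. Fragments of the transgene's own hsf-1 sequence can be counted at this gene, and sy441 transcripts are counted there too, so the level does not separate mutant from full-length mRNA. N2 larvae had 37.9, 42.0 and 38.6 CPM, below every library of both other strains. Transcripts of unc-119 (M142.1; chromosome III from 10902549 to 10908831), which encodes a lipid-binding trafficking protein of neurons, were at 20.0, 19.1 and 19.1 CPM in the mutant and at 3.01, 2.53 and 3.34 CPM in the transgene strain. The groups did not overlap, the mutant level was that of N2 (18.1 ± 1.59 CPM, SD, n = 3), and the log2 fold change was 2.71 ± 0.13 (SE, adjusted p = 1.24e-08 by edgeR). The strain with the low level is the one labelled unc-119(ed9), and the effect of that allele on the transcript was not tested.

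The genes around hsf-1 were at different levels in all 3 strains. In an interval of 297 kb on chromosome I (11891590 to 12188998), chosen after its values were seen and so described without a test, 41 genes were tested, and 31 of them had a mean level of at least 2 CPM. Over these 31 genes, the median of each gene's level divided by its N2 mean was 2.91, 3.15 and 3.04 in the mutant libraries, 2.09, 1.91 and 2.09 in the transgene libraries, and 0.988 to 0.996 in the N2 libraries. The mutant libraries thus lay near 3 times and the transgene libraries near 2 times the wild-type level, with little spread within a strain and no overlap between strains. Among 15 flanking genes of the same minimum level, the same medians were 1.01 to 1.07 in the mutant and 0.918 to 0.954 in the transgene strain.

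Against N2, 31 of the 41 genes were called higher in the mutant and 23 in the transgene strain. Of all tested genes, 20.9% differed between mutant and N2 (9.42% higher) and 1.33% between transgene strain and N2 (0.949% higher). Between the mutant and the transgene strain, 17 of the 41 genes (41.5%) were called higher in the mutant and 0 lower, where 2.55% and 2.08% of all tested genes were called higher and lower. The median log2 fold change of the 41 was 0.60, against −0.004 over all genes, and 36 were above 0. The gene hda-3 (R06C1.1), a histone deacetylase, had 101, 108 and 107 CPM in the mutant and 75.9, 70.02 and 75.7 CPM in the transgene strain, with 31.9, 33.6 and 30.9 CPM in N2. The groups were apart in each pair, and the log2 fold change between the mutant and the transgene strain was 0.51 ± 0.06 (SE, adjusted p = 1.31e-04). The actin regulator gene wve-1 (R06C1.3) had 81.2, 93.6 and 82.7 CPM in the mutant, 50.04, 51.8 and 52.4 CPM in the transgene strain and 27.2, 28.96 and 27.6 CPM in N2 (log2 fold change 0.74 ± 0.06, adjusted p = 6.84e-06 by edgeR). Others of the 17 were eif-2Bbeta, a subunit of a translation initiation factor's exchange factor, ubc-12, which conjugates the ubiquitin-like protein NEDD8, exo-3, a DNA repair endonuclease, and ksr-2, a scaffold of MAP kinase signalling.

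Not every gene of the interval followed. R06C1.4 was at 617 CPM in N2, 647 CPM in the mutant and 728 CPM in the transgene strain. The 5 genes with a log2 fold change below 0 between mutant and transgene strain were R06C1.4, hsf-1, rga-2, F58D5.6 and M01G12.14. The transgene strain's level of hsf-1 relative to N2 was above the interval's median (log2 fold change 1.46 against 0.99), while the mutant's was below it (1.31 against 1.59). After 34 °C the medians relative to N2 at 34 °C were 2.90, 2.95 and 3.05 in the mutant libraries and 1.97, 1.77 and 2.02 in the transgene libraries, over the same 31 genes. Those of the flanking genes were then 1.31, 1.34 and 1.08 in the mutant and 0.939 to 1.04 in the transgene strain. In running windows of 15 genes of at least 2 CPM along the chromosomes (11095 windows), the highest median log2 fold change between transgene strain and N2 was 1.09 in windows touching the interval and 0.45 elsewhere. For mutant against N2 these values were 1.84 and 0.75. For the mutant against the transgene strain they were 0.64 and 0.56, and the lowest window, also on chromosome I, was at −0.67, so the interval stood out little from other windows in that comparison. The count of genes called higher in the interval was 15 to 25 over 28 alternative analyses, with a median log2 fold change between 0.54 and 0.71, and it was 17 without transgene replicate 3. The libraries hold RNA, and DNA of these strains was not analysed here.

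**Figure D2:**
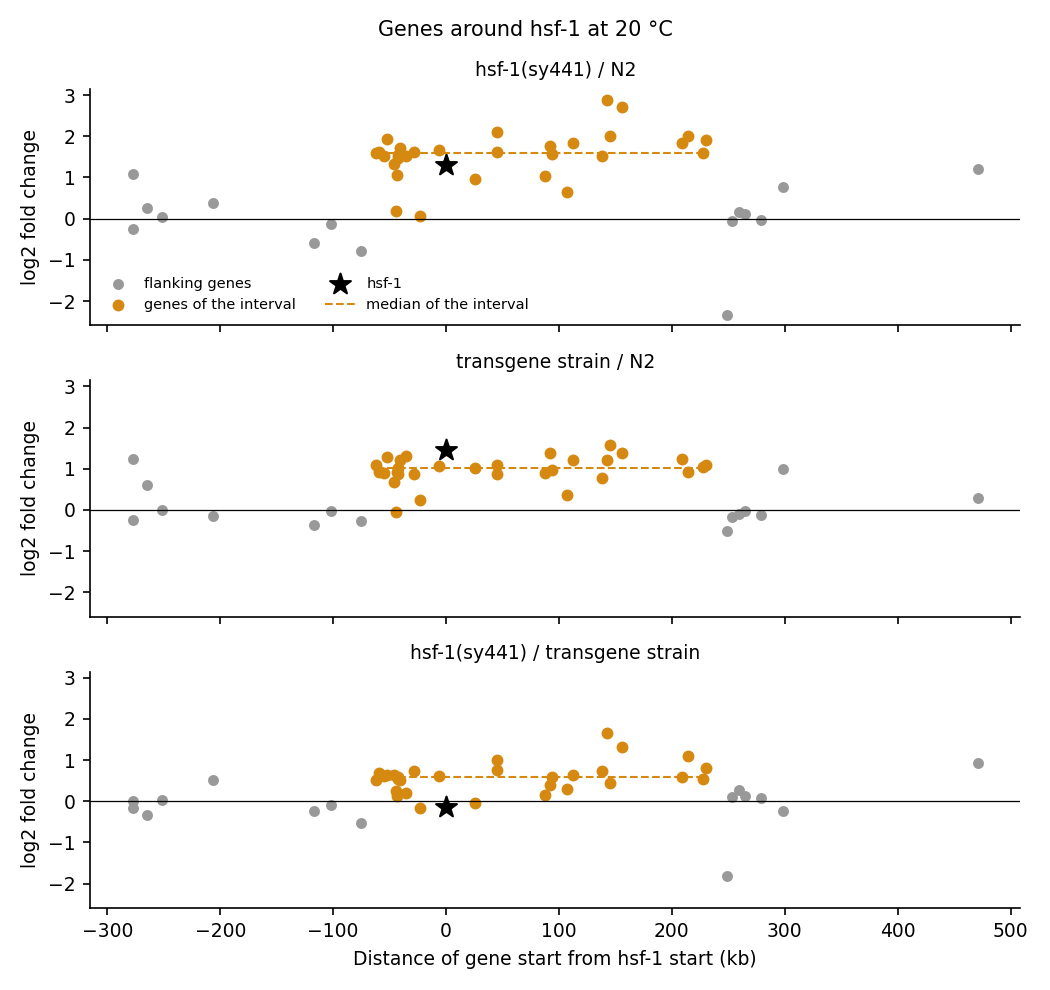
log2 fold changes at 20 °C (vertical) of genes with a mean level of at least 2 CPM, by the distance in kb of their start from the start of hsf-1 (horizontal), for the mutant against N2, the transgene strain against N2 and the mutant against the transgene strain. Orange points are the 31 genes of the interval, the dashed line is their median (1.60, 1.01 and 0.60 from top to bottom), grey points are flanking genes around 0, and the star is hsf-1.

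Over the whole genome, 659 of 14219 tested genes (4.63%) differed between mutant and transgene strain at an adjusted p under 0.05, 363 (2.55%) higher in the mutant and 296 (2.08%) lower. The genes higher in the mutant differed more in size than those lower, with a median fold of 2.11 against 1.49. Of the 277 genes that differed at least 2-fold, 196 were higher in the mutant and 81 lower. Of the 251 that differed under 1.5-fold, 102 were higher and 149 lower. This balance depended on the scaling and the fit: 55.1% of called genes were higher in the mutant here, 70.6% with upper quartile scaling and 77.9% with total fragments, which moves the median of all genes from −0.004 to 0.11. It was 73% and 74.8% with limma on log2(FPKM + 0.1) and log2(FPKM + 1), and 70.8% to 73.8% when any 1 of the mutant libraries at 20 °C was left out. Other fits turned the balance: 49.6% were higher with DESeq2, 45% in a fit of the 6 libraries alone and 44.4% with a component score as covariate. Without transgene replicate 3, 519 genes were called, 354 higher and 165 lower, and 447 of the 659 were among them. Groups that did not overlap were found for 4764 genes (33.5%), and 3016 genes had an unadjusted p under 0.05.

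Called genes were spread over the genome. The share called was 4.54% to 5.78% on each autosome and 2.65% on the X chromosome. It was 4.25% to 5.23% in 4 classes of level from under 1 CPM to 100 CPM or more. Of 187 tested pseudogenes, 17 (9.09%) were called, all 17 of them higher in the mutant. The authors' deposited table marks 358 of the 659 genes (54.3%) as significant for the same pair of groups, and gives all 659 the same sign. It comes from the same libraries, so the equal signs are not separate support. It marks 1653 of the genes tested here as significant, so most of its calls were not called here. Among those it does not mark is aqp-10, described below (authors' q = 0.4531).

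**Figure D3:**
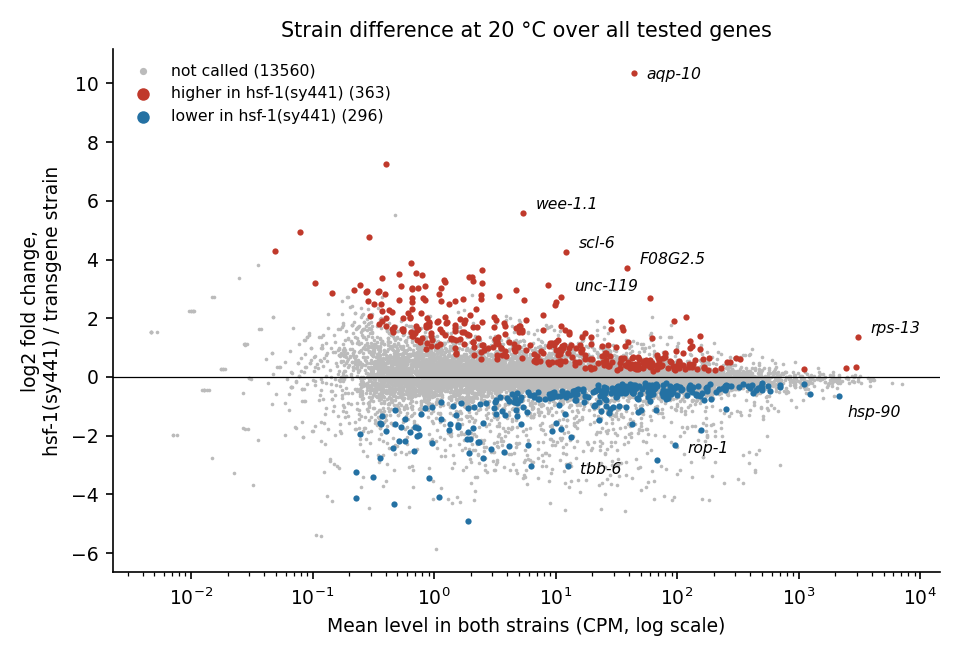
log2 fold change of the mutant against the transgene strain at 20 °C (vertical) by the mean level of both strains in CPM (horizontal, log scale) for all 14219 tested genes. Red points are the 363 genes called higher in the mutant and blue points the 296 called lower, and aqp-10 stands alone at 10.35.

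The largest difference among genes of at least 10 CPM was at aqp-10 (ZK1321.3, chromosome II, 9768392 to 9769793), which encodes an aquaporin, a membrane channel for water and small solutes. It had 91.0, 90.5 and 83.6 CPM in the mutant and 0.0527, 0.129 and 0 CPM in the transgene strain, which is 8883 fragments against 4. The ratio of fragments per library total was 1540, with an exact 95% binomial counting interval of 600 to 5640, which covers counting error only, and edgeR's adjusted p was 2.86e-09. N2 had 102 CPM, and transcripts of aqp-10 were therefore nearly undetected in the transgene strain alone. The gene next to it, shk-1 (ZK1321.2, chromosome II, 9758175 to 9768206, examined after its values were seen), a voltage-gated potassium channel, went the other way. Its level was 28.9, 27.7 and 31.1 CPM in the mutant and 60.6, 67.1 and 72.2 CPM in the transgene strain, with 28.5 CPM in N2 (log2 fold change −1.19 ± 0.12, adjusted p = 3.20e-05 by edgeR). The flanking genes nos-3 and ZK1321.4 had adjusted p-values of 0.641 and 0.470.

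Several of the genes with the largest differences were like aqp-10 in that N2 lay with the mutant and the transgene strain was low. The genes scl-6, scl-3 and scl-5 lie within chromosome IV, 13059594 to 13070266, and encode secreted proteins of the SCP/CAP family. scl-6 had 17.9, 30.2 and 21.8 CPM in the mutant, 0.738, 0.429 and 2.47 CPM in the transgene strain and 17.7 CPM in N2 (log2 fold change 4.26 ± 0.70, adjusted p = 0.00279). scl-3 had 94.3, 105 and 115 CPM in the mutant and 9.97, 9.05 and 29.3 CPM in the transgene strain. In each gene all mutant libraries were above all transgene libraries, with the highest transgene value in replicate 3. The call of scl-3 (adjusted p = 0.0453 by edgeR) was lost in 11 of 28 alternatives, where its p ranged from 1.77e-05 to 0.194, and scl-5, named after its values were seen, had a log2 fold change of 2.64 (adjusted p = 0.0149).

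K09C6.9 and C12D5.9 on chromosome V showed the same order. K09C6.9 had 19.7, 14.4 and 17.4 CPM in the mutant and 3.74, 2.06 and 3.02 CPM in the transgene strain, with 16.3 CPM in N2 (log2 fold change 2.55 ± 0.24, adjusted p = 1.59e-05 by edgeR). C12D5.9 was at 12.8 ± 1.88 CPM (SD, n = 3) in the mutant, 2.98 ± 0.31 CPM in the transgene strain and 12.4 CPM in N2. A pair of neighbouring genes at the end of the X chromosome, vap-1, which encodes a venom-allergen-like secreted protein, and F11C7.2, were also lower in the transgene strain than in the mutant (log2 fold changes of 1.69 and 1.52, adjusted p = 3.58e-04 and 0.00757 by edgeR). Both were named after their values were seen.

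For the remaining genes with the largest excess in the mutant, N2 lay with the transgene strain and the mutant alone was high. wee-1.1 (F35H8.7, chromosome II), a gene of the WEE1 kinase family that restrains entry into mitosis, had 9.38, 8.70 and 13.8 CPM in the mutant and 0.211, 0.214 and 0.229 CPM in the transgene strain, with 0.142 CPM in N2. Its log2 fold change was 5.57 ± 0.55 (adjusted p = 3.20e-05 by edgeR). F08G2.5 had 77.4, 71.2 and 68.6 CPM in the mutant against 4.96, 5.62 and 6.04 CPM in the transgene strain and 5.27 CPM in N2. ZK973.8 had 15.7 ± 1.05 CPM (SD, n = 3) against 1.78 ± 0.35 CPM, and R11E3.1 had 16.6 ± 0.45 CPM against 3.01 ± 0.04 CPM, with 1.23 and 1.82 CPM in N2. The groups of these 4 genes were far apart, and each stayed called in all 28 alternatives.

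Among genes lower in the mutant, rop-1 (C12D8.11, chromosome V, 10248880 to 10255032) had the smallest adjusted p. It encodes the worm's Ro protein, which binds small noncoding RNAs. Its level was 33.1, 29.1 and 35.3 CPM in the mutant and 153, 168 and 161 CPM in the transgene strain, with 137, 143 and 142 CPM in N2. Mutant and other libraries did not overlap, and the log2 fold change against the transgene strain was −2.31 ± 0.10 (SE, adjusted p = 2.86e-09). Its locus is shared with akt-1, whose log2 fold change of −0.67 had an adjusted p of 0.124. cTel54X.1, a gene at the left end of chromosome III, was at 1.37 ± 0.38 CPM in the mutant, 11.1 ± 1.06 CPM in the transgene strain and 9.32 CPM in N2 (SD, n = 3). The aspartyl protease gene asp-12 had 19.6, 12.5 and 18.02 CPM in the mutant and 116, 135 and 108 CPM in the transgene strain, with 123 CPM in N2 (log2 fold change −2.84, adjusted p = 0.00474 by edgeR). The remaining genes in this group with N2 at or above the transgene level, or close to it, were icl-1, F18E3.11, F18E3.13, F57H12.6 and nspc-10, with log2 fold changes of −1.80, −1.84, −1.77, −1.62 and −1.56. Calls of F18E3.13 and F57H12.6 were lost without transgene replicate 3, and over all alternatives their adjusted p-values ranged from 4.03e-04 to 0.158 and from 2.85e-04 to 0.156.

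For the last 2 genes of this group, as for shk-1 above, N2 lay nearer to the mutant than to the transgene strain. tbb-6 (T04H1.9, chromosome V), a beta-tubulin gene, had 3.34, 2.02 and 2.83 CPM in the mutant, 20.3, 24.2 and 22.8 CPM in the transgene strain and 3.12 CPM in N2. The transgene libraries were all above the others (log2 fold change −3.03 ± 0.23, adjusted p = 1.90e-06 by edgeR). far-3, a gene for a fatty acid and retinol binding protein, was at 5.24 ± 1.79 CPM in the mutant, 21.6 ± 7.96 CPM in the transgene strain and 7.73 CPM in N2 (SD, n = 3), and its difference between transgene strain and N2 was not called (log2 fold change 1.48, adjusted p = 0.149). Its call against the mutant (adjusted p = 0.0153) was lost in 3 of 28 alternatives, where p ranged from 3.63e-05 to 0.0949, and both genes lie in loci shared with another gene.

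The chaperones of growing cells are known targets of HSF-1. Of 17 constitutive cytosolic chaperone genes, 4 were lower in the mutant and 0 higher, where 2.08% of all tested genes were lower. Of the 17, 15 had a log2 fold change below 0, and the median was −0.22. A median this low was not particular to them. It was −0.27 for 19 endoplasmic reticulum genes, −0.27 for 41 DNA replication and cell cycle genes and −0.23 for 19 actin and tubulin genes. In these lists 1, 0 and 1 genes were called lower. The gene of the Hsp90 chaperone, hsp-90 (C47E8.5, chromosome V, 14680299 to 14688528, a locus shared by 3 genes), had 1686, 1668 and 1690 CPM in the mutant and 2641, 2686 and 2609 CPM in the transgene strain. N2 had 2478, 2333 and 2645 CPM. The mutant libraries were below all others, and the log2 fold change against the transgene strain was −0.65 ± 0.06 (SE, adjusted p = 2.54e-05). The other 3 called genes encode co-chaperones of Hsp90. sti-1, the HOP homologue that links Hsp70 to Hsp90, had 116, 117 and 103 CPM in the mutant and 197, 154 and 167 CPM in the transgene strain (log2 fold change −0.62, adjusted p = 0.0204 by edgeR). fkb-6, an FK506-binding immunophilin, had 115, 122 and 108 CPM against 165, 177 and 182 CPM (log2 fold change −0.60, adjusted p = 0.00131). ahsa-1, the homologue of the Hsp90 ATPase activator, had 226, 216 and 217 CPM against 274, 285 and 266 CPM (log2 fold change −0.33, adjusted p = 0.0252). The groups did not overlap in any of these 4 genes. The calls of hsp-90 and fkb-6 held in all 28 alternatives, while those of sti-1 and ahsa-1 were lost in 5 and 12, including the fit without transgene replicate 3, with adjusted p-values ranging from 8.90e-04 to 0.140 and from 6.35e-04 to 0.203. The abundant Hsp70 gene hsp-1 (2982 against 2852 CPM, adjusted p = 0.74) and the Hsp110 gene hsp-110 (431 against 389 CPM, adjusted p = 0.28) had log2 fold changes of 0.06 and 0.15.

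The CCT chaperonin folds actin and tubulin, and prefoldin delivers them to it. Of 13 of their genes, 3 were lower in the mutant and 0 higher, against 2.08% and 2.55% of all tested genes. Of the 13, 12 had a log2 fold change below 0, and the median was −0.19. cct-3 had 365, 396 and 382 CPM in the mutant and 519, 544 and 490 CPM in the transgene strain. cct-6 had 420, 401 and 395 CPM against 569, 534 and 484 CPM, and cct-2 had 327, 369 and 335 CPM against 412, 483 and 450 CPM. In each, all transgene libraries were above all mutant libraries, and the log2 fold changes were −0.44, −0.38 and −0.38 (adjusted p = 0.00269, 0.00774 and 0.0319 by edgeR). N2 lay between the strains in all 3, at 429, 480 and 402 CPM. The call of cct-3 held in all 28 alternatives, that of cct-6 was lost in 2 (p from 4.45e-06 to 0.0949), and that of cct-2 was lost in 10, including the fit without transgene replicate 3 (p from 0.00361 to 0.193). With total fragments as the scaling, the medians of the chaperone and CCT lists were −0.10 and −0.07, relative to a median of 0.11 over all genes, with 3 and 2 members called lower.

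**Figure D4:**
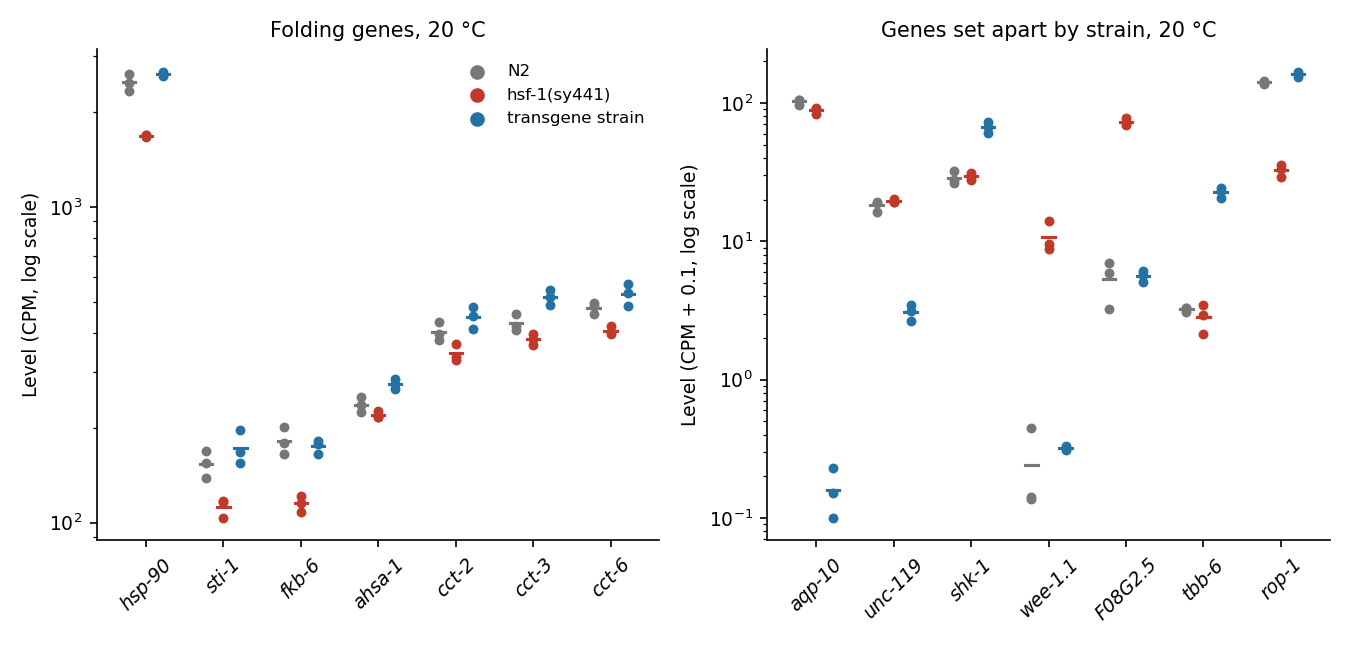
Level of each library at 20 °C (points) and group mean (bars) in N2, the mutant and the transgene strain on log scales, in CPM for 7 folding genes (left) and in CPM + 0.1 for 7 genes with large strain differences (right). On the left, the mutant libraries are below the transgene libraries for every gene, with hsp-90 at 1668 to 1690 against 2609 to 2686 CPM. On the right, N2 lies with the mutant for aqp-10, unc-119, shk-1 and tbb-6 and with the transgene strain for wee-1.1, F08G2.5 and rop-1.

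The heat-inducible genes were at low levels in both strains. Of 4 that could be tested, hsp-70 (C12C8.1, in a locus shared by 2 genes) was higher in the mutant, at 2.34, 1.68 and 2.37 CPM against 0.686, 0.686 and 1.28 CPM in the transgene strain and 0.335, 0.364 and 0.594 CPM in N2. The groups did not overlap (log2 fold change 1.26 ± 0.25, adjusted p = 0.00906 by edgeR), and the call was lost in 4 of 28 alternatives, where p ranged from 1.59e-04 to 0.0638. For hsp-16.41 and hsp-16.2, the means of 1.91 and 1.19 CPM in the mutant stood against 16.7 and 7.38 CPM in the transgene strain, which rested on replicate 3 as given above (adjusted p = 0.171 and 0.158). The median of the 4 genes was −1.31 with this library and 1.35 without it. In the fit without it, 2 of the 4 were called higher in the mutant and none had a log2 fold change below 0. Of the 4, 1 was at 0 CPM in both strains at 20 °C, so these medians rest on few genes. None of 9 other small heat shock protein genes was called (median 0.42, 7 above 0). None of 8 genes for HSF-1 and its partners, among them efl-1 and dpl-1 for the E2F/DP factor and hsb-1 for an HSF binding protein, was called, with log2 fold changes from −0.26 to 0.39.

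Protein quality control outside the cytosol gave few calls. In the endoplasmic reticulum list, cnx-1 for the lectin chaperone calnexin was the 1 called gene of 19, with 221, 201 and 202 CPM in the mutant and 273, 282 and 249 CPM in the transgene strain (log2 fold change −0.36, adjusted p = 0.0176 by edgeR). Its call was lost in 7 of 28 alternatives, where p ranged from 3.11e-04 to 0.225. None of 11 mitochondrial chaperone and protease genes was called. All 30 tested proteasome genes had a log2 fold change below 0, with a median of −0.36, and 0 were called. rpn-3, a subunit of the proteasome's regulatory particle, had 236, 221 and 198 CPM in the mutant and 323.5, 345 and 262 CPM in the transgene strain (log2 fold change −0.51, adjusted p = 0.0689 by edgeR). Groups did not overlap for 11 of the 30 genes, all lower in the mutant, where 17.9% of all tested genes had every mutant library below every transgene library. The summed level of the 30 genes was 4011 to 5005 CPM in the mutant and 4996 to 6386 CPM in the transgene strain, with the lowest transgene value in replicate 3. DESeq2 called 1 of the 30 lower, and the fit with a component score as covariate called 28. That score was the first component of these libraries' own deviations from their group means, so using it lowers the spread within groups. The same fit called 3035 of all tested genes, so its count of 28 is not separate support.

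Among genes for making proteins, the ribosomal protein gene rps-13 stood out. rps-13 (C16A3.9, chromosome III, 6374041 to 6374950) had 4549, 4438 and 4224 CPM in the mutant and 1790, 1679 and 1675 CPM in the transgene strain, with 1684, 1610 and 1828 CPM in N2. All mutant libraries were above all other libraries (log2 fold change 1.36 ± 0.06, adjusted p = 1.08e-08 by edgeR), and the call held in all 28 alternatives. Of 69 cytosolic ribosomal protein genes, 2 others were higher, rps-4 and rps-17 (log2 fold changes of 0.34 and 0.32), and 1 was lower, rpl-18A (−0.57), while the median was −0.10. The calls of these 3 were lost in 16, 10 and 6 of 28 alternatives, with the highest adjusted p at 0.238, 0.129 and 0.213. Of 66 mitochondrial ribosomal protein genes 4 were lower and 0 higher, against 2.08% and 2.55% of all tested genes. mrps-5 had 123, 122 and 113 CPM in the mutant and 197, 195 and 173 CPM in the transgene strain, and 142 CPM in N2 between them (log2 fold change −0.66, adjusted p = 1.57e-04). mrpl-38, mrpl-50 and mrps-35 had log2 fold changes of −0.46, −0.29 and −0.30, and their calls were lost in 2, 10 and 19 of 28 alternatives, with the highest adjusted p at 0.0668, 0.190 and 0.481. The median of the list was −0.12.

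Of 39 translation factor genes, eif-2Bbeta of the chromosome I interval was higher and eif-2D and eif-3.F were lower (−0.39 and −0.31), with a list median of −0.10. Among 22 nucleolar genes, rbd-1, which acts in making the small ribosomal subunit, was higher, with 141, 140 and 164 CPM against 116.6, 118.6 and 115.1 CPM (log2 fold change 0.34, adjusted p = 0.0339 by edgeR). 1 of 43 respiratory chain genes, atp-3 of the ATP synthase, was lower (−0.27), as was vha-14 of the proton pump of lysosomes among 19 autophagy and lysosome genes (−0.30). The calls of eif-2D, eif-3.F, rbd-1, atp-3 and vha-14 were lost in 8, 12, 4, 13 and 8 of 28 alternatives, with the highest adjusted p at 0.204, 0.211, 0.129, 0.438 and 0.198. The medians of the nucleolar, respiratory chain and autophagy lists were 0.16, −0.16 and −0.09. None of 41 DNA replication and cell cycle genes was called. Among all tested genes, 2.55% were called higher and 2.08% lower.

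Genes of fatty acid breakdown were among those lower in the mutant. Of 45 genes of lipid metabolism, 5 were lower and 1 was higher, where 2.08% of all tested genes were lower and 2.55% higher, and the median was −0.20. acs-2, an acyl-CoA synthetase of mitochondrial beta-oxidation, had 2.14, 1.04 and 0.881 CPM in the mutant and 7.80, 6.22 and 6.82 CPM in the transgene strain, with 13.5 CPM in N2. acdh-2, an acyl-CoA dehydrogenase, had 2.98, 1.87 and 1.03 CPM against 13.2, 9.56 and 6.87 CPM, with 27.1 CPM in N2. Groups did not overlap, with transgene levels between those of the mutant and N2, and log2 fold changes of −2.34 and −2.33 (adjusted p = 0.0110 and 0.0102 by edgeR). acdh-9 and the lipase gene lipl-7 were also called lower (−0.53 and −0.75). icl-1, the enzyme of the glyoxylate cycle that turns fat into carbohydrate, had 89.1, 79.1 and 42.2 CPM against 262, 266 and 203 CPM, with 351 CPM in N2 (adjusted p = 0.00796 by edgeR). It was listed with insulin signalling and DAF-16 targets and is not among the 45. Of 8 enoyl-CoA hydratase genes named ech, a family counted after the calls were seen, 4 were lower against the same 2.08%, ech-7, ech-3, ech-4 and ech-5, with log2 fold changes from −0.53 to −0.31. The calls of acs-2, acdh-2, acdh-9 and lipl-7 were lost in 2, 4, 7 and 6 of 28 alternatives, with the highest adjusted p at 0.0712, 0.0865, 0.155 and 0.106, while that of icl-1 held in all.

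Genes against oxidants were lower where called. Of 52 glutathione S-transferase and oxidative response genes, 4 were lower and 0 higher, against 2.08% and 2.55% of all tested genes, with a median of −0.06 and 31 of the 52 below 0. gst-4, a glutathione S-transferase widely used as a reporter of the oxidative stress factor SKN-1, had 26.9, 25.9 and 23.1 CPM in the mutant and 49.7, 53.2 and 50.3 CPM in the transgene strain, with 44.1 CPM in N2 (log2 fold change −1.01 ± 0.14, adjusted p = 4.77e-04 by edgeR). gst-35 and gst-39 had log2 fold changes of −1.60 and −0.65, and prdx-2, a peroxiredoxin, −0.47. The calls of the 3 transferases held in all 28 alternatives, and that of prdx-2 was lost in 10, with the highest adjusted p at 0.247.

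Of 130 cytochrome P450 and UDP-glucuronosyltransferase (UGT) genes, 8 were higher and 3 lower, against 2.55% and 2.08% of all tested genes. The median of this list was −0.04, with 67 of the 130 below 0. ugt-24 had 25.4, 26.2 and 26.1 CPM in the mutant and 8.02, 8.88 and 10.3 CPM in the transgene strain, with 6.67 CPM in N2 (log2 fold change 1.51 ± 0.23, adjusted p = 0.00134 by edgeR). ugt-32 and ugt-48 were higher by log2 fold changes of 1.73 and 0.45, and ugt-23 was lower (−0.54), a call lost in 5 of 28 alternatives with p up to 0.0931. Of 115 C-type lectin genes, 8 were higher and 1 was lower, against 2.55% and 2.08% of all tested genes, with a median of 0.13. clec-84 had 29.9, 37.8 and 30.5 CPM against 17.03, 14.2 and 15.8 CPM, and 13.9 CPM in N2 (log2 fold change 1.06, adjusted p = 8.02e-05). clec-185 and clec-198 differed the other way from N2: N2 had 2.99 and 4.81 CPM, near the 3.43 and 4.45 CPM of the mutant, while the transgene strain had 1.60 and 2.01 CPM. Of 74 innate immunity effector genes, which had a median of −0.11 and shares called near those of all tested genes, 2 were higher (dct-17, 0.63, and abf-4, 3.03) and 2 lower (lys-10, a lysozyme gene, −2.54, and spp-15, −0.61), and all 4 calls were lost in some alternatives, with the highest adjusted p from 0.0927 to 0.177, and without transgene replicate 3 none of the list was called. Called genes of other lists included pgp-1, a P-glycoprotein exporter (142 ± 18.5 against 81.5 ± 12.26 CPM, SD, n = 3), the inositol transporter gene hmit-1.1 (50.6 ± 12.4 against 24.1 ± 5.06 CPM) and dod-17, a gene known to lie downstream of the insulin pathway factor DAF-16 (54.2 ± 6.26 against 23.97 ± 3.93 CPM), all higher in the mutant. Of 25 genes of insulin signalling and DAF-16 targets, dod-17 was the 1 called higher. The 1 called lower was icl-1, given above. The call of hmit-1.1 (adjusted p = 0.0438 by edgeR) was lost in 11 of 28 alternatives, with p up to 0.196, and that of dod-17 in 3, with p up to 0.1, while that of pgp-1 held.

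Cell type markers gave few calls at 20 °C. Of 31 neuron markers, flp-8, a neuropeptide gene, was higher in the mutant (34.1 against 23.8 CPM, adjusted p = 0.0196 by edgeR), with N2 at 36.3 CPM near the mutant. Its call was lost in 6 of 28 alternatives, with the highest adjusted p at 0.0891. Of the 31, 23 had a log2 fold change above 0 and 8 below. Every mutant library was above every transgene library for 11 and below for 2, against 15.6% and 17.9% of all tested genes. After 34 °C, 10 of the 31 were called higher in the mutant and 0 lower, against 5.24% and 3.9% of all tested genes. Of 20 intestine markers, pgp-1 was higher and spl-1, a sphingosine phosphate lyase, was lower (−0.28, adjusted p = 0.0476), a call lost in 19 of 28 alternatives with p up to 0.442. None of 24 body wall muscle, 14 pharynx, 18 hypodermis and seam or 32 germline markers was called. The medians of the 6 lists were 0.10 for neurons, −0.16 for the intestine, 0.07 for muscle, 0.52 for the pharynx, −0.03 for hypodermis and seam and 0.15 for the germline. Summed levels of the intestine markers were 6057 to 6945 CPM in the mutant and 7560 to 8587 CPM in the transgene strain and did not overlap, and their part in the other differences was not tested. The sums overlapped for neuron markers (2474 to 2557 against 2279 to 2531 CPM), muscle (16290 to 17900 against 15650 to 16970 CPM), pharynx (1323 to 2069 against 749 to 1521 CPM), hypodermis and seam (2790 to 2954 against 2530 to 2947 CPM) and germline (747 to 800 against 624 to 822 CPM). No tested marker of these lists was at 0 in all libraries of a strain. In whole animals, fewer cells of a type and less RNA per cell cannot be told apart.

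Transcripts of the larval cuticle cycle differed between libraries of 1 strain as well as between strains. The summed level of 134 cuticle collagen genes was 8580, 7921 and 6042 CPM in the mutant and 20300, 19590 and 10030 CPM in the transgene strain, with 27890, 34320 and 10930 CPM in N2. Replicate 3 was the lowest in all 3 strains, as it was for the summed level of the molting and apical matrix genes. The median log2 fold change of the collagens was −0.49, and 1 was called higher (col-152) and 1 lower (col-43), both under 1 CPM. Of 38 molting and apical matrix genes, with a median of −0.64, the kinase gene nekl-3 was called lower (24.9 against 38.6 CPM, adjusted p = 0.0257, up to 0.183 over 28 alternatives, 9 of which lost the call), and none of 18 heterochronic genes was called. These genes vary with age within a larval stage, and their part in the other differences was not tested. Without transgene replicate 3 the calls of rop-1, rps-13, hsp-90, fkb-6, gst-4 and aqp-10 held.

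Of 37 histone genes, 8 were lower and 0 higher, against 2.08% and 2.55% of all tested genes, with a median of −0.83. Those named, his-61, his-62, his-38 and his-4, had means under 3 CPM in each group, and histone genes share near-identical copies, which makes their counts uncertain. Their transcripts mostly lack poly(A) tails, and the libraries were poly(A)-selected. After 34 °C, 0 of the 37 were lower and 1 was higher, against 3.9% and 5.24% of all tested genes.

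The same strains after 30 min at 34 °C gave a second set of libraries. There, 1299 of 14219 genes (9.14%) differed between mutant and transgene strain. Of the 659 genes called at 20 °C, 645 (97.9%) had the same sign and 464 (70.4%) had the same sign and were called again, 252 of the 363 higher and 212 of the 296 lower. Across temperatures, deviations from the group means of same-numbered libraries had correlations of 0.184 to 0.725, so the second set may not be fully independent. Some unlike-numbered libraries were as alike, with 0.54 for mutant replicate 1 at 20 °C and replicate 2 after 34 °C. Replicate 3 against replicates 1 and 2 gave −0.684 to −0.175 within these strains. Replicate 3 against replicate 3 gave 0.725 in the mutant and 0.71 in the transgene strain. Replicate 3 thus departed from its group in a like way at both temperatures. Whether the numbers pair the libraries is not known from the labels. Over the alternatives, the share called again was 50.1% to 83.5%, and without transgene replicate 3 at 20 °C it was 70.7%.

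4 genes were called in opposite directions at the 2 temperatures, hsp-70, dct-10, ZK1053.2 and bath-34, each higher in the mutant at 20 °C and lower after heat. For hsp-70, levels after heat were 61.0, 58.2 and 74.8 CPM in the mutant and 659, 617 and 746 CPM in the transgene strain (log2 fold change −3.38 ± 0.22, adjusted p = 1.96e-07 by edgeR). For hsp-90 they were 3016, 2841 and 2900 CPM against 8804, 8026 and 7863 CPM (log2 fold change −1.50 ± 0.06). The strain difference itself differed between temperatures for 28 genes (0.197%) by the interaction term of the fit, hsp-70 and hsp-90 among them (adjusted p = 2.68e-06 and 1.99e-04). Of the 17 constitutive chaperone genes 10 were called lower in the mutant after heat, and of the 13 CCT and prefoldin genes 6, where 3.9% of all tested genes were lower (5.24% higher). Strain-specific levels stayed: aqp-10 had 0 fragments in each transgene library after heat, rop-1 had a log2 fold change of −2.34, rps-13 of 1.42 and unc-119 of 2.90.

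**Figure D5:**
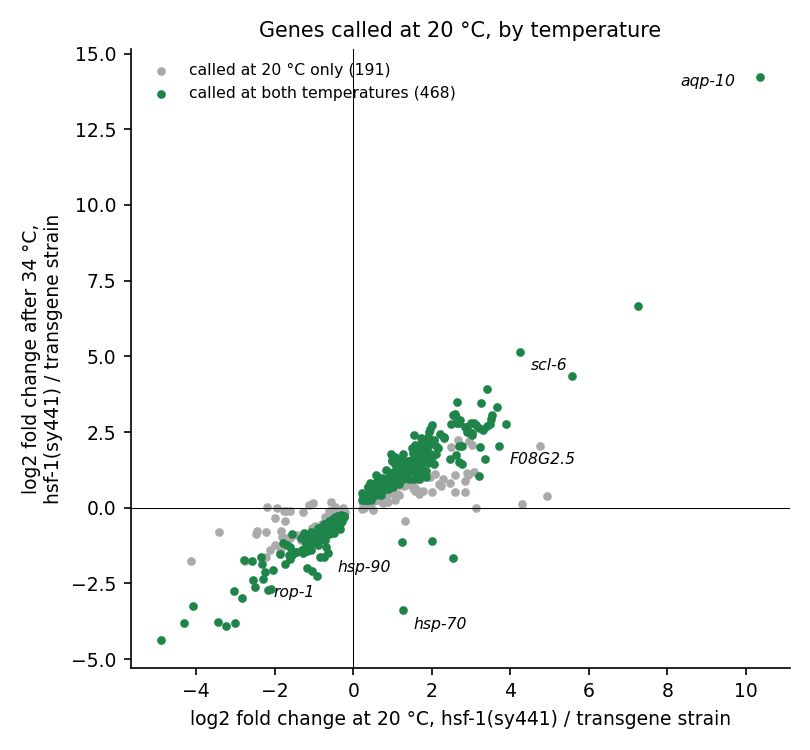
log2 fold change of the mutant against the transgene strain at 20 °C (horizontal) and after 34 °C (vertical) for the 659 genes called at 20 °C, in green where also called after 34 °C (468, of which 464 with the same sign). Most points lie in the quadrants of equal sign, and hsp-70 (1.26 and −3.38) lies in a quadrant of opposite sign.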

How the data were processed

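TopHat 2, Cuffdiff and build ce10 are named in the submitters' processing notes. Per the file headers, the authors deposited for each library and gene an estimated count of fragments (expected counts, not always whole) and an FPKM value, and, for each pair of groups, a log2 fold change with a p-value and q-value. Fragment counts were rounded (92.4% of values were whole already). The 114 genes with a failed estimate in any library, which held 6.11% to 6.62% of the fragments in the 6 libraries, were left out. Names matched for 97.5% of genes, from tables of another build used for names only. Coordinates are those of the files, on ce10. Many loci hold several genes, between which the counting can split fragments.

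edgeR 4.0.16 (R 4.3.3) was fitted to all 18 libraries (1 mean per group, TMM factors of 1.059 to 1.239 in the 6 libraries, filterByExpr, robust quasi-likelihood F test, two-sided, Benjamini-Hochberg over 14219 genes, called at 0.05). The biological coefficient of variation was 25.3%. The procedure was tested on simulated data. No floor was applied where all counts of a group were 0. Named genes were hsf-1 and unc-119, the 10 largest differences each way among called genes with at least 10 CPM and no overlap between groups, and up to 4 called members of each of 35 lists, or the member with the highest level where none was called. The members and lists were chosen with earlier results of these data known. Lists are described by counts of calls and medians, against 2.55% of all tested genes higher, 2.08% lower and a median of −0.004. Alternatives were other scalings and filters, DESeq2 1.42.0, limma 3.58.1 on log2(FPKM + 0.1) and log2(FPKM + 1), fits of 6 or 9 libraries, a replicate block, a component covariate and leaving out each library. The planned description of promoter motifs was not run, since no sequences were at hand.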

Additional observations from a re-analysis of the deposited data

Results flagged for a closer look

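3 named genes had a strain difference that itself differed between temperatures by the interaction term of the same edgeR fit, which called 28 of 14219 genes (0.197%). For hsp-70 the log2 fold change of mutant against transgene strain was 4.64 lower after 34 °C than at 20 °C (difference −4.64, adjusted p = 2.68e-06), and every mutant library was above every transgene library at 20 °C and below every one after heat. For hsp-90 the difference was −0.84 (adjusted p = 1.99e-04), with the mutant lower at both temperatures. For F08G2.5 it was −1.65 (adjusted p = 0.0164): the mutant had 181, 211 and 182 CPM and the transgene strain 47.5, 38.5 and 52.7 CPM after heat, so that the mutant was higher at both temperatures.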

How the results depend on the processing

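The count of 659 called genes (363 higher, 296 lower) became 1505 (747, 758) with DESeq2, which gave no adjusted p to 4153 genes by its own filter, 1169 (526, 643) with the 6 libraries alone, 422 (308, 114) and 424 (317, 107) with limma on log2(FPKM + 0.1) and log2(FPKM + 1), and 3035 (1349, 1686) with a component score as covariate. With total fragments 576 were higher and 163 lower, 739 in all, against 728 (514, 214) with upper quartile scaling and 648 with RLE factors. With total fragments, which moves the median of all genes to 0.11, the medians of the cytosolic ribosomal, translation factor, glutathione and oxidative, P450 and UGT, and immunity lists turned from below 0 to 0.02, 0.02, 0.06, 0.07 and 0.01. Leaving out 1 library of the 6 gave 328 to 519 called genes (189 to 354 higher, 102 to 166 lower), and leaving out any library tried gave 328 to 764 (189 to 412, 102 to 352); without 1 N2 library, alternatives chosen after seeing the data, 592 to 660 were called (351 to 411 higher, 181 to 290 lower). Genes called again after 34 °C were 949 with DESeq2, 286 with limma on log2(FPKM + 0.1), 2143 with the covariate, and 274 to 541 with a library left out (387 to 454 for N2). hsf-1 was uncalled and unc-119 called in all alternatives.

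The replicate number as a block gave 2715 called genes (1096, 1619), or 40.4% higher, of which 1814 were called again after 34 °C, and 3050 (1370, 1680) in the 6 libraries alone. Same-numbered libraries of the 2 strains had correlations of deviations of 0.288, 0.049 and 0.529, and nothing in the labels says that a number marks a shared culture, so the block is not used as the main result. All 659 genes were among those called with the block over 18 libraries, as were 29 of the 30 proteasome genes, all lower, against 0 without it, and 7 of the 17 chaperone genes against 4.

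Of 86 named genes, 75 were called and 36 of these held in all alternatives. 4 values changed sign, all uncalled: hsp-25 to −0.0313 without transgene replicate 1 (0.0584 at most with another library left out), unc-15 to −0.0172 without transgene replicate 2 (0.1526 at most), and hsp-6 to 0.0042 with upper quartile scaling and 0.043 with total fragments. Over the named genes other than hsf-1 and unc-119, 292 of 2347 values lost the call and 16 gained it. The cause of these changes was not tested, beyond fewer libraries or genes where the alternative has them. At 19188662 to 33046421 fragments per library, genes under 1 CPM rest on few fragments.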
